A study of Homo sapiens with 4 samples.

Results

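The genes described here are the cyclins, the cyclin-dependent kinases (CDKs) and the regulators that act on them, chosen by gene name alone from the probes of a 2-colour cancer microarray. The name rule took 34 of the 1856 gene probes, and each of the 34 stood for a different gene and was printed as 2 spots. By their known roles, 12 act in G1 (CCND2, CCNE1, CDK2, CDK3, CDK4, CDK6, CDC25A, CDKN1A, CDKN1B, CDKN1C, RB1 and RBL2), 4 in S phase (CCNA1, CCNA2, MCM2 and PCNA) and 10 in G2 and mitosis (CDK1, CDC25B, CDC25C, CDC23, PLK1, PLK4, CHEK2, BUB1B, MAD1L1 and MAD2L2). The other 8 share the name pattern but act mainly elsewhere (CCNC, CDK7, CDK8, CDK9, CDK10, CDK2AP1, CDC42BPB and CDC42SE1). No member was chosen from its measured value.

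MDA-MB-231, an established line of human triple-negative breast adenocarcinoma cells, received recombinant human LRG1 (rhLRG1, a secreted leucine-rich glycoprotein) at 100 ng/mL for 24 h in RPMI medium with serum, or stayed untreated in the same medium for the same time. There were 2 rhLRG1-treated and 2 untreated cultures, numbered 2 and 3. The cultures of one number shared one array, with the rhLRG1 sample always in the far-red Alexa Fluor dye and the untreated sample always in the orange one. Without a dye swap, dye and treatment cannot be told apart in any ratio below. The p-values rest only on the spread between the 2 arrays, which the fit draws for each gene toward that of all probes.

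A cell passes from G1 into S phase when cyclin D with CDK4 or CDK6, and then cyclin E with CDK2, phosphorylate the pocket proteins RB1 and RBL2 and so free the E2F factors that switch on replication genes. CDC25 phosphatases remove the inhibitory phosphates from CDKs, whereas the CIP/KIP proteins p21, p27 and p57 bind and block them. Cyclin A with CDK2 and later CDK1 carries the cell through replication to mitosis, where Polo-like kinases and the spindle checkpoint time the separation of the chromosomes.

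E2F factors, and the repressor complex built on RBL2 and its relatives, bind short promoter motifs in many of these genes, so the promoters of the genes described below were searched for both motifs. The windows run from 250 bases before to 50 bases after the first listed RefSeq start of each gene (GRCh38.p14), and 31 of the 34 genes have one. Other starts of a gene were not searched. CCND2, CDK2 and CDKN1C were not searched. The letters TTTCCCGC or TTTGGCGC, 2 forms of an E2F site, were found on either strand in 3 of the 31 windows (9.68%), against 624 of all 27058 promoters (2.31%) and 39 of the 1349 promoters of genes on this array (2.89%). Those of CDC25A and PCNA are shown because they belong to genes with values below, and that of CDC23 is the only other one. Capitals mark the motif, each sequence is written along its gene, and PCNA carries the letters on the opposite strand. The windows are chr3:48188443-48188472 (minus strand, motif 44 bases before the start) for CDC25A, chr20:5126663-5126692 (minus strand, 59 before) for PCNA and chr5:138213492-138213521 (minus strand, 187 before) for CDC23.
CDC25A: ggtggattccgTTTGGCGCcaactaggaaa
PCNA: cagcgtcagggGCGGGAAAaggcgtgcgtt
CDC23: tattttctaatTTTCCCGCctcagtagctc
The letters TTTGAA of the cell cycle homology region (CHR), a repressor element of mitotic genes, were found on either strand in 6 of the 31 windows (19.4%), against 4181 of all promoters (15.5%) and 155 of the array's promoters (11.5%). RBL2, CDK1, BUB1B and PLK1, shown here with the motif in capitals, carry it on the strand of the gene. The others are CCNC, also on the strand of the gene, and PLK4, on the opposite strand. The windows are chr16:53434484-53434511 (plus strand, motif 24 bases after the start) for RBL2, chr10:60778159-60778186 (plus strand, 161 before) for CDK1, chr15:40161035-40161062 (plus strand, 23 before) for BUB1B and chr16:23678849-23678876 (plus strand, 29 before) for PLK1.
RBL2: gcgcttcgccgTTTGAAtggctgcgggc
CDK1: agtataataaaTTTGAActgtgccaatg
BUB1B: ggaccgttaaaTTTGAAacttggcggct
PLK1: ccagcgccgcgTTTGAAttcggggagga
A match of letters is a description of the sequence and does not show a bound site.

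The scanned foreground over all gene spots had a median of 397 and 319 in the rhLRG1 samples of replicates 2 and 3, and of 508 and 425 in the untreated ones. Nearly every probe (98.5%), and each of the 34 genes, lay above its background by 2 SDs of the background in all 4 samples, so brightness above background could not be used to check the identity of the cells. VIM, CD44 and EGFR, markers of this line, were above background in untreated cells, but so were ERBB2, at 43.4 and 30.4 times the background, and PGR, at 5.17 and 4.21 times, receptors whose proteins triple-negative cells lack. The array of replicate 3 stood apart. On it 1 spot in the rhLRG1 channel and 2 spots in the untreated channel, none of them of the 34 genes, had a local background more than 10 times the median (up to 3440 and 5340, against medians of 70.4 and 48.9). The background model (normexp) is fitted to all spots of a channel, and with these spots it added a median of 104 intensity units in the rhLRG1 channel and 39.8 in the untreated channel of replicate 3. On replicate 2 it changed the channels by a median of −1.31 and −3.29. The SD of the log2 ratios over all probes was 0.207 on replicate 2 and 0.125 on replicate 3, and it was 0.207 and 0.206 after those backgrounds were set to the median of their channel. That setting was added after the values were seen, and its results are given beside the others as the reset backgrounds.

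The cell cycle genes as a group differed little between rhLRG1-treated and untreated cells. All values are log2 ratios of rhLRG1 over untreated after normexp and loess, a smoothing that removes the dependence of the ratio on brightness within each array. The 34 mean ratios ran from −0.30 to 0.23, which is 0.814-fold to 1.17-fold, with SEs of the limma fit between 0.0567 and 0.0924. Their median was 0.023, against −0.0061 over all 1856 probes, with 20 genes above 0 and 14 below. The size of the ratio, with the sign left aside, had a median of 0.075 in these genes and 0.0849 over all probes. In bulk RNA, fewer cells in a phase and less RNA per cell cannot be told apart.

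**Figure D1:**
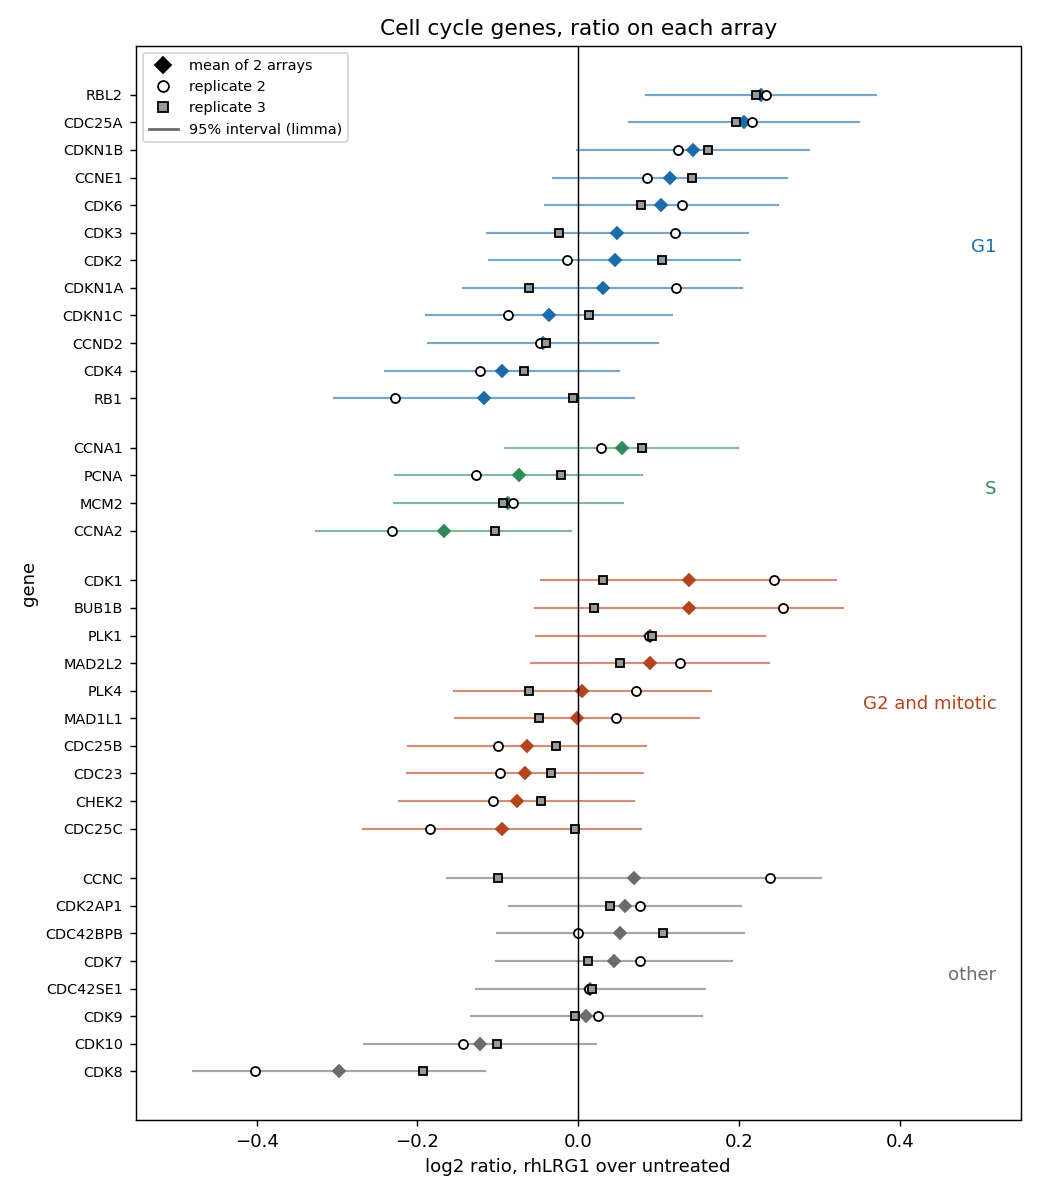
Log2 ratio of rhLRG1 over untreated (horizontal axis) of the 34 genes, sorted within 4 role groups, with circles for replicate 2, squares for replicate 3, diamonds for the mean and lines for limma's 95% interval. The interval excludes 0 for RBL2, CDC25A, CCNA2 and CDK8 alone, and the 4 groups lie across 0.

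Few of the genes were called. The study's methods name a Z ratio with a threshold of 1.5 and give no formula. Here the Z ratio was the difference of the scaled log10 intensities, after normexp, divided by the SD of all such differences, and it gives no p-value. It called 1 of the 34 genes (2.94%), CDK8, against 13.4% of all probes. None of the 34 was called higher (6.73% of all probes) and 1 was called lower (6.63% of all probes). Limma called none of the 34 at an adjusted p under 0.05 and 0% of all probes, the lowest adjusted p being 0.145 among these genes and 0.124 over all. At an unadjusted p under 0.05 it took 4 of the 34 genes (11.8%), CDC25A and RBL2 above 0 and CCNA2 and CDK8 below, against 23.3% of all probes.

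Agreement between the arrays was near that of the whole array. Both arrays gave the same sign for 25 of the 34 genes (73.5%), against 75.3% of all probes. Of these 25 genes, 13 were above 0 on both arrays (35.7% of all probes) and 12 below (39.6% of all probes). Across the 34 genes, which are no independent replicates, the ratios of the 2 arrays had a Pearson's r of 0.581, against 0.633 over all probes. The duplicate spots of a gene had ratios of opposite sign for 8 of the 34 genes on replicate 2 (23.5%, against 20.4% of all probes) and for 10 on replicate 3 (29.4%, against 23.2% of all probes). All 4 spots of CDK1, CCNE1, CDK6, CDKN1B, MAD2L2 and RBL2 had ratios above 0, whereas all 4 spots of CCNA2, CDC23, CDC25C, CDK10, CDK4, CDK8, CHEK2 and MCM2 had ratios below 0. The share of all probes with 4 spots of one sign is not given here, so these lists cannot be set against the array.

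The Z rule called dim probes of the array at a higher rate than bright ones. With the probes split by brightness into 3 classes of like size, the Z rule called 23.3% of the dimmest, 9.22% of the middle and 7.59% of the brightest class, and the cell cycle genes held 11, 7 and 16 probes in these classes. CDK8, its only call among them, lay in the dimmest. The foreground of the 34 genes was 1.52 to 320 times the background (median 7.94) in the rhLRG1 sample of replicate 2 and 1.3 to 307 times (median 6.76) in that of replicate 3. In the untreated samples it was 2.64 to 452 times (median 15) and 2.19 to 367 times (median 11.7).

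**Figure D2:**
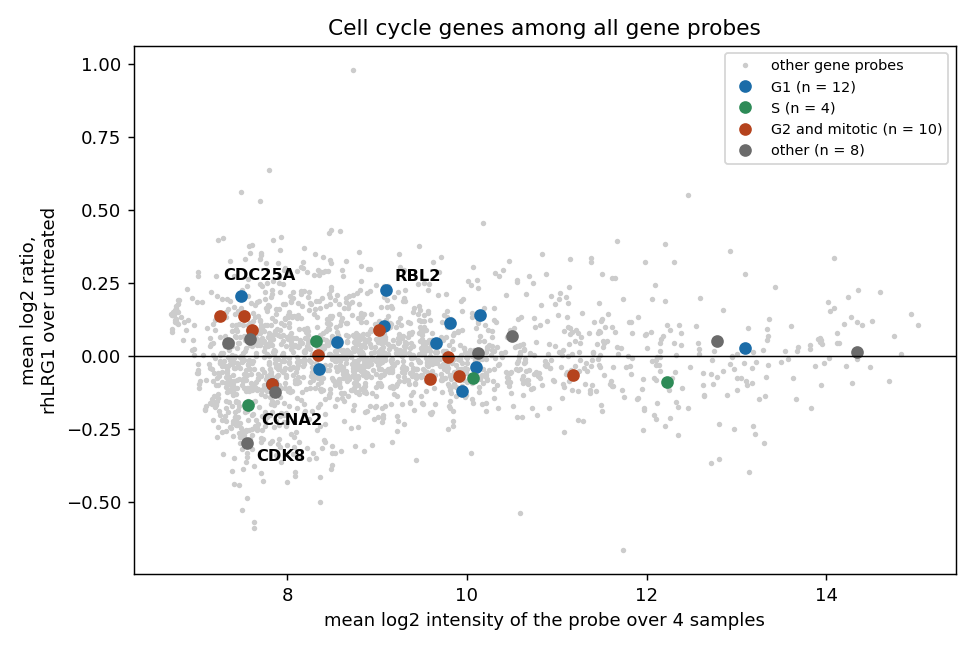
Mean log2 ratio of rhLRG1 over untreated (vertical axis) against mean log2 intensity over the 4 samples (horizontal axis), with the 34 cell cycle genes coloured by role over all other gene probes in grey. CDC25A, CCNA2 and CDK8 sit at the dim end, where the grey points spread most, and RBL2 is brighter.

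Of the G1 genes, RBL2 and CDC25A had the highest ratios of all 34. The 12 G1 genes had a median log2 ratio of 0.047 (−0.12 to 0.23), with 8 above 0 and 4 below. Both genes with an unadjusted p under 0.05 in this group, RBL2 and CDC25A, were higher in rhLRG1-treated cells, though CDC25A was at −0.070 with median centring in place of loess, and without normalization CDC25A was at −0.38 and RBL2 at −0.11 (all probes at −0.31).

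RBL2 (NM_005611) encodes p130, the pocket protein that holds E2F targets silent in resting cells. Its normalized log2 intensity was 8.56 and 9.86 in the rhLRG1 samples of replicates 2 and 3, against 8.33 and 9.64 in the untreated ones. The rhLRG1 sample was the higher on both arrays, although the arrays differed from each other by more than the conditions did. The log2 ratio was 0.23 on replicate 2 and 0.22 on replicate 3, with a mean of 0.23 (SE 0.057, n = 2, 1.17-fold, 95% interval 0.085 to 0.37). Limma gave an unadjusted p of 0.00878 and an adjusted p of 0.145. The Z ratio was 1.42, short of the threshold, and all 4 spots were above 0 (0.26 and 0.21 on replicate 2, 0.33 and 0.11 on replicate 3).

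CDC25A (NM_001789) encodes the phosphatase that activates CDK2 at entry into S phase. Its normalized log2 intensity was 7.05 and 8.14 in the rhLRG1 samples of replicates 2 and 3, against 6.83 and 7.94 in the untreated ones. Again the rhLRG1 sample was the higher on both arrays. The log2 ratio was 0.22 and 0.20, with a mean of 0.21 (SE 0.057, n = 2, 1.15-fold, 95% interval 0.063 to 0.35, adjusted p = 0.147 by limma), and the Z ratio was 0.829. Its duplicate spots, however, disagreed more than those of any other of the 34 genes. On replicate 2 one spot gave −0.29 and the other 0.72, and on replicate 3 the same positions gave 0.030 and 0.36. With the duplicate spots kept apart in the fit, CDC25A no longer had an unadjusted p under 0.05. The gene was also dim, the foreground being 1.69 and 2.11 times the background in the rhLRG1 samples, against 3.52 and 3.45 times in the untreated ones.

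**Figure D3:**
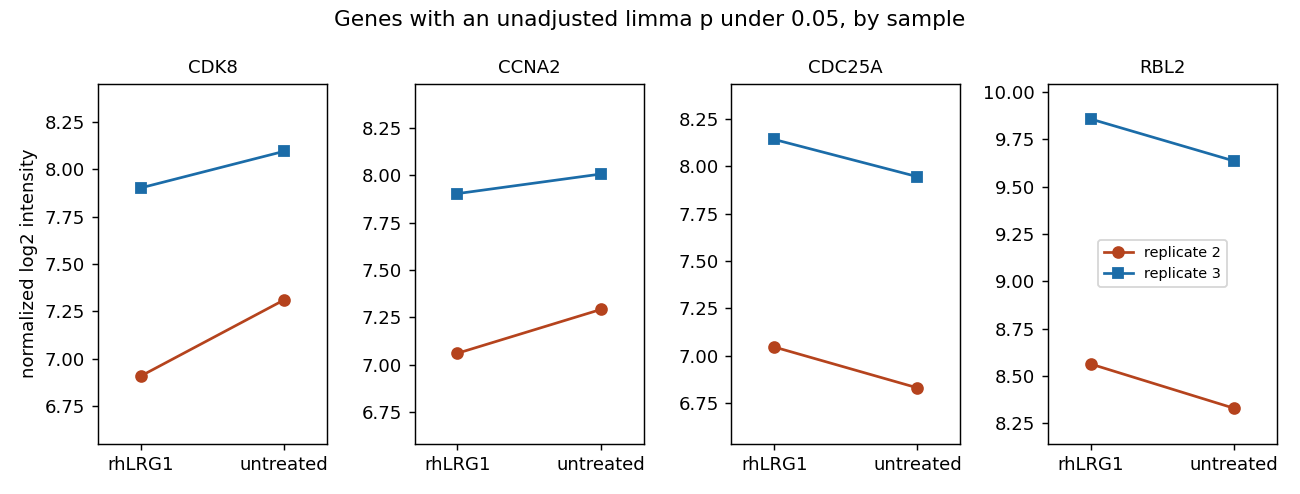
Normalized log2 intensity (vertical axis) of CDK8, CCNA2, CDC25A and RBL2 in each rhLRG1 and untreated sample, with a line joining the samples of one array. Within both arrays CDK8 and CCNA2 are lower and CDC25A and RBL2 higher in the rhLRG1 sample after loess. RBL2 and CDC25A are lower without normalization, and CDC25A is lower with median centring. The gap between replicates 2 and 3 is wider than that between conditions, but the background model added a median of 104 (rhLRG1) and 39.8 (untreated) units on replicate 3. Scanned rhLRG1 foreground on replicates 2 and 3 was lower on replicate 3 for CDK8 (110 and 91.2) and CCNA2 (121 and 93.4). It was higher there for CDC25A (121 and 149) and RBL2 (344 and 803).

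After loess the inhibitors of CDKs did not share a direction. CDKN1B, which encodes p27, had log2 ratios of 0.12 and 0.16 (mean 0.14, 95% interval −0.0013 to 0.29). CDKN1A, which encodes p21 and was the brightest of the G1 genes, had 0.12 on replicate 2 and −0.062 on replicate 3. CDKN1C, which encodes p57, had −0.087 and 0.014. Thus only CDKN1B kept its sign across the arrays after loess, and its interval still reached 0. With the reset backgrounds that interval was 0.023 to 0.28 (adjusted p 0.0912 by limma). Median centring in place of loess put all of these inhibitors above 0, CDKN1A at 0.397, CDKN1B at 0.255 and CDKN1C at 0.063.

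The G1 kinases and cyclins were also split. CCNE1, the E cyclin that partners CDK2, had a mean log2 ratio of 0.11 (95% interval −0.032 to 0.26), and CDK6, a partner of D cyclins, had 0.10 (−0.042 to 0.25). CDK4, the other partner of D cyclins, had normalized log2 intensities of 7.48 and 8.10 in the rhLRG1 samples, against 7.60 and 8.16 in the untreated ones. Its ratio was −0.12 on replicate 2 and −0.067 on replicate 3, with a mean of −0.094 (SE 0.058). CDK2, CDK3 and CCND2 stayed within 0.05 of 0 on average.

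RB1, the retinoblastoma protein, had the lowest mean ratio of the G1 genes. Its normalized log2 intensity was 9.75 and 10.02 in the rhLRG1 samples of replicates 2 and 3, against 9.98 and 10.03 in the untreated ones. The difference was carried by replicate 2, where the log2 ratio was −0.23, while replicate 3 gave −0.0059. The mean was −0.12 (SE 0.074, 95% interval −0.30 to 0.070), so after loess RB1 and its relative RBL2 stood at opposite ends of the G1 group. Only RBL2 was then away from 0 beyond its error, and with median centring its unadjusted p by limma was 0.0872.

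Of the 4 S-phase genes, 3 were below 0 on both arrays and 1 was above on both, but with median centring in place of loess MCM2 was at 0.20, PCNA at 0.033 and CCNA1 at −0.045, and with the net intensities PCNA was at 0.0014. Their median log2 ratio was −0.080 (−0.17 to 0.054), and it was −0.0061 with median centring. CCNA2 (NM_001237), the somatic A cyclin needed for replication and for entry into mitosis, had the lowest. Its normalized log2 intensity was 7.06 and 7.90 in the rhLRG1 samples of replicates 2 and 3, against 7.29 and 8.01 in the untreated ones, so the rhLRG1 sample was the lower on both arrays. The log2 ratio was −0.23 and −0.10, with a mean of −0.17 (SE 0.063, n = 2, 0.891-fold). Limma gave an unadjusted p of 0.0421 and an adjusted p of 0.203, and the Z ratio was −1.35. All 4 spots were below 0 and lay close together (−0.22 and −0.24 on replicate 2, −0.091 and −0.12 on replicate 3). CCNA2 was dim, its foreground being 1.73 and 1.33 times the background in the rhLRG1 samples, against 4.92 and 3.65 times in the untreated ones.

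The other S-phase genes had smaller ratios. MCM2, a subunit of the replicative helicase, had normalized log2 intensities of 12.36 and 12.01 in the rhLRG1 samples, against 12.44 and 12.10 in the untreated ones, and ratios of −0.081 and −0.093. PCNA, the sliding clamp of the DNA polymerases, had 10.21 and 9.85 in the rhLRG1 samples, against 10.34 and 9.88 in the untreated ones, and ratios of −0.13 and −0.021. CCNA1, the A cyclin of the germ line, had 8.29 and 8.40 in the rhLRG1 samples, against 8.26 and 8.32 in the untreated ones, and ratios of 0.029 and 0.079. The 95% intervals of all 3 means included 0.

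None of the 10 G2 and mitotic genes reached an unadjusted p under 0.05, against 23.3% of all probes. With the reset backgrounds, where 36.9% of all probes reached it, CDK1, BUB1B and MAD2L2 did. Their adjusted p by limma was then 0.0738 for CDK1, 0.112 for BUB1B and 0.104 for MAD2L2. Before the reset, the 10 genes had a median log2 ratio of 0.0019 (−0.095 to 0.14), with 5 above 0 and 5 below. No ratio was then larger than 0.26 on either array. CDK1, the mitotic kinase, had normalized log2 intensities of 6.77 and 7.86 in the rhLRG1 samples of replicates 2 and 3, against 6.53 and 7.83 in the untreated ones. BUB1B, the checkpoint kinase BUBR1, had 7.22 and 7.94 in the rhLRG1 samples, against 6.97 and 7.92 in the untreated ones. The ratios on replicates 2 and 3 were 0.24 and 0.031 for CDK1 and 0.26 and 0.020 for BUB1B, and both means were 0.14 with intervals that included 0. The small ratios of replicate 3 depended on its background model, since the reset backgrounds gave 0.12 for CDK1 and 0.085 for BUB1B there. With the net intensities the ratios were 0.73 and 0.52 for CDK1 and 0.37 and 0.15 for BUB1B, while with median centring the means were −0.047 for CDK1 and −0.13 for BUB1B.

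At the low end of this group, CDC25C, the phosphatase that activates CDK1 at mitosis, had 7.36 and 8.20 in the rhLRG1 samples, against 7.55 and 8.21 in the untreated ones. Its log2 ratio was −0.18 on replicate 2 and −0.0045 on replicate 3. CHEK2, the kinase that restrains CDC25 phosphatases after DNA damage, had 9.51 and 9.58 in the rhLRG1 samples, against 9.62 and 9.63 in the untreated ones, with ratios of −0.11 and −0.046. MAD1L1, a spindle checkpoint protein like BUB1B, had a mean of −0.0011, and MAD2L2, an inhibitor of the anaphase-promoting complex, had 0.089. PLK1, the Polo-like kinase of mitotic entry, had 0.088 and 0.091, the closest match between arrays in this group. Its duplicate spots on replicate 2, however, gave 0.20 and −0.026. CDC23, a subunit of the anaphase-promoting complex, had a mean of −0.066.

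The lowest ratio of all 34 genes belonged to CDK8 (NM_001260), the kinase of the Mediator complex, which acts on transcription rather than on a phase of the cycle. Its normalized log2 intensity was 6.91 and 7.90 in the rhLRG1 samples of replicates 2 and 3, against 7.31 and 8.09 in the untreated ones. The rhLRG1 sample was the lower on both arrays. The log2 ratio was −0.40 on replicate 2 and −0.19 on replicate 3, with a mean of −0.30 (SE 0.072, n = 2, 0.814-fold, 95% interval −0.48 to −0.12). The Z ratio was −2.18, past the threshold, whereas limma gave an unadjusted p of 0.00788 and an adjusted p of 0.145. All 4 spots were below 0 (−0.37 and −0.44 on replicate 2, −0.23 and −0.16 on replicate 3). In scanned units the foreground was 110 and 91.2 in the rhLRG1 samples, against 210 and 218 in the untreated ones, and it was only 1.57 and 1.3 times the background in the rhLRG1 samples, against 5.09 and 4.33 times in the untreated ones.

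CCNC, the cyclin that partners CDK8 in Mediator, did not follow it. Its normalized log2 intensity was 10.86 and 10.21 in the rhLRG1 samples of replicates 2 and 3, against 10.63 and 10.31 in the untreated ones. The ratio was 0.24 on replicate 2 and −0.10 on replicate 3, the widest disagreement between arrays of the 34 genes, with an SE of 0.092. CDK10 had 7.496 and 8.12 in the rhLRG1 samples, against 7.64 and 8.22 in the untreated ones, with ratios of −0.14 and −0.10 (mean −0.12, 95% interval −0.27 to 0.022). CDK2AP1, a protein that binds CDK2, had 7.22 and 7.997 in the rhLRG1 samples, against 7.15 and 7.96 in the untreated ones, with ratios of 0.077 and 0.040. The transcriptional kinases CDK7 and CDK9 had means of 0.044 and 0.010, and CDC42BPB and CDC42SE1, partners of the GTPase CDC42, had 0.053 and 0.015.

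**Figure D4:**
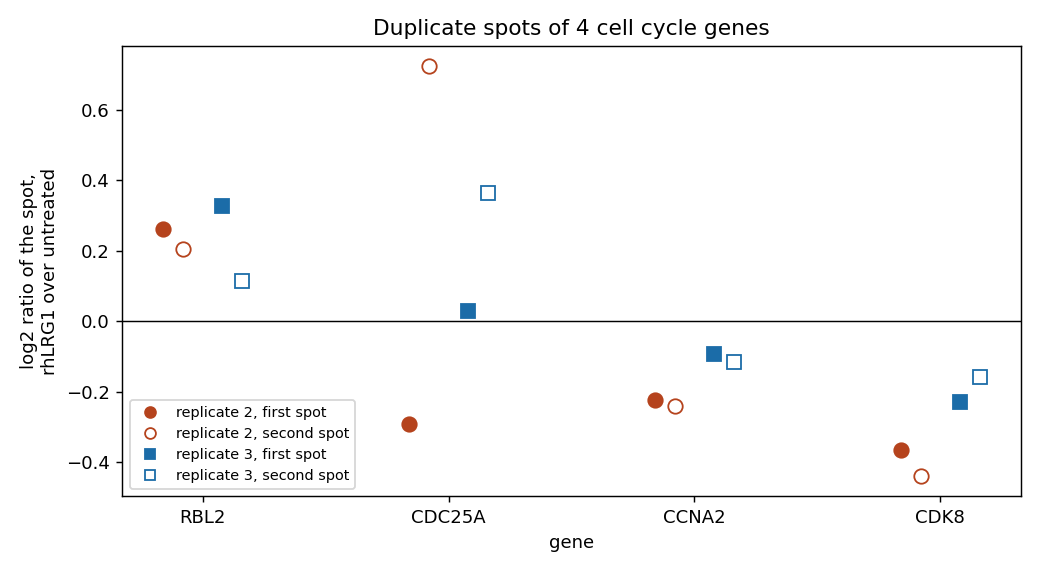
Log2 ratio of rhLRG1 over untreated (vertical axis) of every spot of RBL2, CDC25A, CCNA2 and CDK8, with circles for replicate 2, squares for replicate 3, and filled and open symbols for the first and second spot. The spots of RBL2 lie above 0 and those of CCNA2 and CDK8 below, whereas those of CDC25A run from −0.29 to 0.72.

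With the reset backgrounds the same 4 genes passed the limma test. The values of replicate 2 did not change, and the ratios of replicate 3 became −0.63 for CDK8, −0.37 for CCNA2, 0.59 for CDC25A and 0.24 for RBL2. The mean log2 ratio was then −0.51 (SE 0.070) for CDK8, −0.30 (SE 0.057) for CCNA2, 0.40 (SE 0.096) for CDC25A and 0.24 (SE 0.048) for RBL2. Limma's adjusted p was 0.0129 for CDK8, 0.0241 for CCNA2, 0.0424 for CDC25A and 0.0290 for RBL2. These 4 of 34 (11.8%) stood against 21.8% of all probes, 2 above 0 (10.9% of all probes) and 2 below (10.9% of all probes), so the share among the cell cycle genes was below that of the array. The Z rule then called CDK8 (−2.70) and CCNA2 (−1.79) lower and no gene higher, against 7% called lower and 4.74% called higher over all probes. At an unadjusted p under 0.05 limma took 10 of the 34 genes (29.4%), against 36.9% of all probes, the others being CDKN1B, CDK1, BUB1B and MAD2L2 above 0 and CDK4 and CDK10 below.

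The deposited net intensities, which carry the authors' own background subtraction and scaling, gave wider ratios for the dim genes. In them the mean log2 ratio was 0.73 for CDC25A (0.51 and 0.95 on replicates 2 and 3), 0.62 for CDK1, −0.83 for CDK8 (−0.65 and −1.01), −0.42 for CCNA2 and 0.29 for RBL2. Limma called 10 of the 34 genes at an adjusted p under 0.05 (29.4%), against 32.5% of all probes. Of these, 7 were above 0 (17.0% of all probes), namely BUB1B, CDC25A, CDK1, CDK2AP1, CDK7, MAD2L2 and RBL2, and 3 were below (15.5% of all probes), namely CCNA2, CDK8 and CDK10. The Z rule called 4 genes (11.8%), against 11.9% of all probes, and those were CDC25A and CDK1 higher and CDK8 and CCNA2 lower. Of the settings in which the Z ratio was computed, these net intensities alone had CDC25A and CDK1 called higher, and from the scanned intensities without normalization the mean of CDC25A was −0.38.

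**Figure D5:**
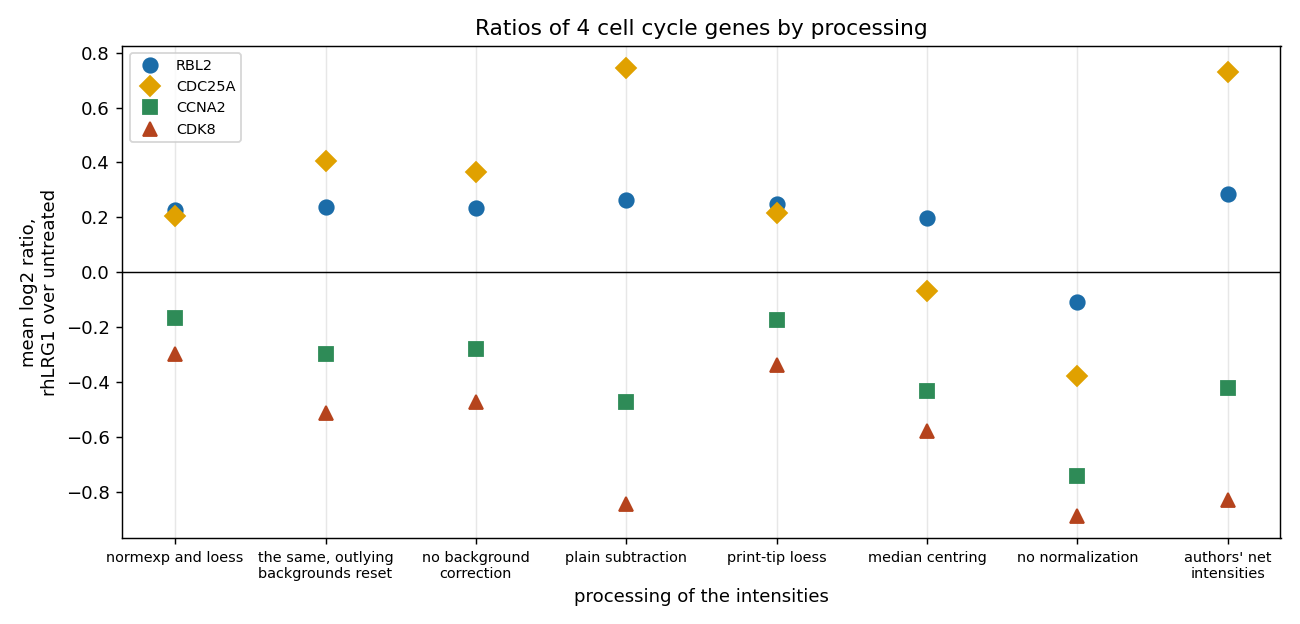
Mean log2 ratio of rhLRG1 over untreated (vertical axis) of RBL2, CDC25A, CCNA2 and CDK8 under 8 ways of processing the same 2 arrays. CDK8 and CCNA2 stay below 0 in all of them, while CDC25A runs from −0.38 without normalization to 0.74 after plain subtraction of the background, and RBL2 is below 0 without normalization.

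A list of 40 other cell cycle genes from textbook knowledge had 18 members on the array. Their median log2 ratio was −0.020, with 5 above 0 and 13 below. The Z rule called 1 lower (6.63% of all probes), ATM, the kinase that signals double-strand breaks. The normalized log2 intensity of ATM was 8.22 and 8.33 in the rhLRG1 samples, against 8.51 and 8.63 in the untreated ones, with a mean of −0.29. The rhLRG1 sample was the lower on both arrays. Besides ATM, the mitotic kinase AURKB (mean −0.22) and SFN, a 14-3-3 protein (−0.19), were below 0 at an unadjusted p under 0.05. Of all probes, 11.7% were below 0 at that p, and no adjusted p of the 18 genes was under 0.143. With the reset backgrounds 4 of the 18 passed an adjusted p of 0.05, against 21.8% of all probes. All 4 were lower in rhLRG1-treated cells (10.9% of all probes), namely ATM (−0.37), MYB (−0.26), MDM2 (−0.25) and AURKB (−0.22). Among the other genes of the list, MYC, MYBL2, FOXM1, TYMS, TK1, TOP2A, AURKA and BIRC5 did not reach an adjusted p of 0.05 in either case.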

How the data were processed

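MDA-MB-231 RNA of 2 rhLRG1-treated and 2 untreated cultures was hybridised to 2 two-colour arrays of 3840 spots. The authors deposited, per spot and channel, scanned intensity, local background, net intensity, and beside these the quotient of both net intensities, which is their own comparison and was not used. The net intensities in the deposited processed and value tables matched those of the scanner files within 5.0e-06. The study's methods name genArise and a Z-score, while R 4.2.2 is given in the submitters' processing notes.

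From the scanned intensities, background was corrected by normexp (offset 50) and loess was applied to the log2 ratios of each array, with the 54 control spots at weight 0. Spots of one accession were averaged. Ratios were tested with limma 3.58.1 in R 4.3.3 and p-values were adjusted by Benjamini-Hochberg across the 1856 gene probes. An exact permutation test of 2 against 2 cannot go below p = 0.333. The Z ratio used background-corrected, unnormalized channels. Normexp, loess, spot averaging, the limma fit and the Z ratio, as used in the main setting, were tested on simulated data. The alternative settings and the promoter search were not. Samples of one number were paired by their shared array, and their deviations from the group means correlated at 0.971.

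Genes were matched to RefSeq, 32 of the 34 by accession and 2 by symbol, and CDK1 is listed as CDC2 on the array. The 34 genes were chosen by name, and genes, role groups and lists were set with earlier results of these data known. Values per sample are given for CDC25A, for genes past the Z ratio or an unadjusted p of 0.05, and for the 2 highest and 2 lowest of each role group, the others by ranges, counts or single values. ATM, AURKB, SFN, MYB and MDM2 were named after their values were seen, and 1 other gene of their list is not reported here. Alternatives covered background correction, normalization, the net intensities, dim probes, unequal spots, each replicate, the pairing and the variance model. Setting outlying spot backgrounds (over 10 times the channel's median) to that median was added after the data were seen.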

Additional observations from a re-analysis of the deposited data

How the results depend on the processing

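The number of genes called higher by the Z ratio was 0, against 125 of all 1856 probes. It became 2 with the authors' net intensities (CDC25A and CDK1, against 105 of all probes) and 1 with loess-normalized channels (RBL2, against 124). It was 1 without replicate 2 (RBL2, Z ratio 1.65, against 119 of all probes) and 0 without replicate 3 (against 107). The number called lower was 1, against 123 of all 1856 probes. It became 2, each time CDK8 and CCNA2, in 4 settings. These were no background correction (against 105 of all probes), plain subtraction (135), the net intensities (115) and the reset backgrounds (130). Without the dimmest of the 3 brightness classes, which held CDK8, it was 0 of 23 genes, against 70 of 1237 probes. The number at an unadjusted limma p under 0.05 (4 of 34, against 23.3% of all probes) became 8 (36.6%) without background correction, 11 (35.8%) with plain subtraction, 7 (18%) with median centring, 12 (40.5%) without normalization, 10 (40.1%) with the net intensities, 10 (36.9%) with the reset backgrounds and 2 of 23 (23.9%) without the dimmest class. Print-tip loess and leaving out unequal spots gave the same 4 genes. Median centring lost CDC25A and RBL2 and took CDK10, CDKN1A, CDKN1B, CDC42BPB and CDC42SE1. The robust variance model gave 5 (27% of all probes), losing CCNA2 and taking CDKN1B and CDK6, and duplicate spots kept apart gave 5 (30.9%), losing CDC25A and taking CDKN1B and CDK10. With no replicate block, that is without the pairing through the array, it was 0 of the genes and 0 of all probes.

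At an adjusted p under 0.05 the 0 genes and 0% of all probes became 4 and 23.3% without background correction (CDC25A, RBL2, CDK8 and CCNA2), 6 and 20.4% with plain subtraction, 1 and 12.3% with the robust model (RBL2), and 1 and 10.6% with duplicate spots kept apart (CDK8). The median log2 ratio (0.023) became −0.30 without normalization, where that of all probes was −0.31, and −0.0044 to 0.027 when a replicate was left out. With median centring 15 of the 34 means changed sign, among them CDC25A (−0.070), BUB1B (−0.13), CDK1 (−0.047), CDK2AP1 (−0.21), CCNA1 (−0.045), MCM2 (0.20) and PCNA (0.033). Without normalization, which moved the whole array down, 17 did, among them CDC25A (−0.38) and RBL2 (−0.11). With median centring 17 genes lay above 0 and 17 below, and without normalization 3 and 31. The shares of all probes for these sign changes and directions are not given here, so the counts cannot be set against the array. The cause of these shifts was not tested. With 1 array limma gives no p, and settings of the normalization do not enter the Z ratio.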
